A study of Mus musculus with 5 samples.

Results

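Cyclin D2, the other D cyclins and the regulators around them were followed at the probe set level in epithelial tumour cells of the mouse prostate. Every probe set was taken whose only gene symbol in the platform annotation is Ccnd1, Ccnd2, Ccnd3, Cdk4, Cdk6, Cdkn1a, Cdkn1b, Cdkn2a, Cdkn2b or Rb1, which gave 27 of the 45037 probe sets and 10 of the 18193 genes on the array. Single-channel Affymetrix arrays measured RNA of 5 C57BL/6 mice, 1 array per mouse. The 3 nDKO mice, aged 15.86, 10.71 and 10.71 weeks, carried the Probasin driver with floxed alleles, among them Smad4, the shared partner of the receptor-activated Smads in TGF-beta signalling. The 2 nTKO mice, aged 31.43 and 16 weeks, carried the same alleles and floxed Pygo2, whose protein reads methylated histone H3 and acts with beta-catenin. Both genotypes therefore shared the Smad4 deletion, and no array came from a prostate with intact alleles. Probasin is a prostate-specific promoter that androgen drives, so cells of a tumour can differ in how far the alleles were deleted. Tumours were dissociated on ice and the cells were pulled out with EpCAM beads.

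The G1 phase of the cell cycle is controlled at the retinoblastoma protein. D cyclins bind the kinases Cdk4 and Cdk6 and the complexes phosphorylate Rb, which releases E2F transcription factors and lets cells enter S phase. INK4 proteins, among them the products of Cdkn2a and Cdkn2b, block Cdk4 and Cdk6 directly, while the Cip/Kip proteins p21 (Cdkn1a) and p27 (Cdkn1b) bind cyclin-kinase complexes and restrain Cdk2. In epithelial cells TGF-beta is known to induce p15 and p21 through Smad proteins, and the Ink4/Arf locus is known as a barrier to tumour growth.

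The 5 arrays had medians of 4.94 to 4.98 (log2). Pygo2, the targeted gene, was at 8.65, 8.62 and 8.72 in nDKO 1 to 3 and at 7.30 and 6.35 in nTKO 1 and 2, and where its probe set lies in the gene is not given in the files used. All 10 epithelial markers measured, among them Epcam and Krt8, were above the array median on every array. Of 3 prostate markers, Hoxb13 and Tmprss2 were above it on every array, while Pbsn, the gene whose promoter is the driver, measured 3.33 to 5.43 on 4 arrays and 8.15 in nTKO 2. Of 7 leukocyte markers, 6 were above the array median on every array. The summed signal of the 7 on the linear scale ranged from 2095 to 4035 in nDKO mice and was 16532 in nTKO 1 and 1392 in nTKO 2. The high sum of nTKO 1 came mostly from S100a8 (12.79, at most 10.53 elsewhere) and S100a9 (12.94, at most 10.01 elsewhere). Ptprc was also highest in nTKO 1, at 8.84. Csf1r and Cd68 were not, at 9.61 and 8.15 there against 9.96 and 8.27 in nDKO 3. The sum of 6 fibroblast and muscle markers was 572 to 902 in nDKO and 342 and 965 in nTKO cells. Below every array median were 4 of these 6, and the sum came mostly from Dcn (6.41 to 9.52) and Acta2 (7.34 to 8.09). For endothelial markers, 0 of 3 were above the median on every array. Seminal vesicle transcripts, 4 of 4 above the median, summed to 8464 in nDKO 1 and to 24812 to 50687 in the other mice. The arrays nDKO 1 and nTKO 1 stood apart from the other 3 by keratins of stratified epithelium: Krt10 measured 13.03 and 13.04 there and 6.71 to 6.93 elsewhere. They came from the oldest mouse of each genotype.

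The group was chosen on the nTKO against nDKO contrast, in which Ccnd2 was among the genes with the largest differences, so all values of that contrast are given as a description and without a test. The difference is the mean log2 signal of the 2 nTKO arrays minus that of the 3 nDKO arrays, with the standard error from a limma fit to all probe sets. In that fit 0 of 45037 probe sets (0%) had an adjusted p under 0.05, with a smallest adjusted p of 0.799, and 1710 had an unadjusted p under 0.05. Both nTKO arrays lay above every nDKO array for 7.02% of all probe sets and below every one for 5.17%. Among the 27 probe sets of these genes, 6 were higher in that sense, all of them of Ccnd2, and 4 were lower, 3 of Cdk6 and 1 of Cdkn1a. A difference of at least 1 log2 unit was seen for 4 of the 27, all of Ccnd2, and for 0.342% of all probe sets, and 51 probe sets on the array (0.113%) reached it with an unadjusted p under 0.05 in limma. Because the contrast chose the members, nothing is read from how these counts compare with the shares over all probe sets. The members have 3 probe sets that stayed below every array median, 1 each of Ccnd2, Cdkn1b and Rb1.

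**Figure D1:**
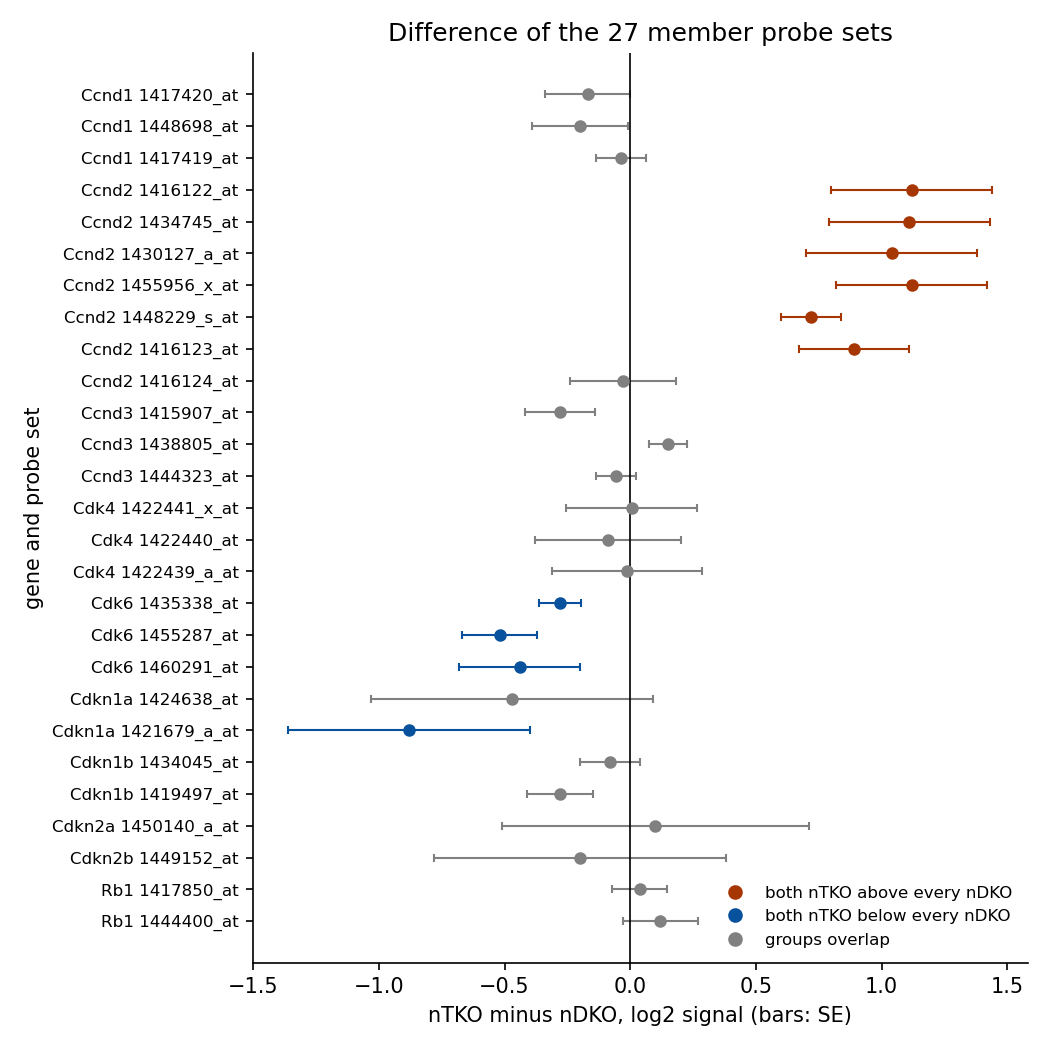
Difference in log2 signal, nTKO minus nDKO, for each of the 27 probe sets (points), with the standard error of the limma fit (bars); colour shows whether the 3 nDKO and 2 nTKO arrays overlap. Of the Ccnd2 probe sets, 6 lie between 0.72 and 1.12, the 3 of Cdk6 lie between -0.52 and -0.28, and those of Ccnd1, Ccnd3, Cdk4, Cdkn1b and Rb1 lie between -0.28 and 0.15.

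Cyclin D2, the growth factor-inducible D cyclin encoded by Ccnd2 (chr6:127125162-127152188, GRCm38.p6), gave about double the signal in nTKO cells. Its brightest probe set, 1416122_at, measured 8.13, 7.27 and 7.27 in nDKO 1 to 3 and 8.67 and 8.69 in nTKO 1 and 2. The groups did not overlap, and nDKO 1 lay between the other nDKO mice and the nTKO mice. The difference was 1.12 (SE 0.32) on the log2 scale, a ratio of 2.18. The gap from the highest nDKO to the lowest nTKO array was 0.54, smaller than the range of 0.86 within the nDKO mice. The nTKO mice differed by 0.02.

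Of the other 6 probe sets of Ccnd2, 5 had both nTKO arrays above every nDKO array on the same RNA, and 1 of these 5 was below the array median on most arrays. Probe set 1434745_at measured 7.90, 7.13 and 6.95 in nDKO mice against 8.49 and 8.39 in nTKO mice, a difference of 1.11 (SE 0.32). Probe set 1430127_a_at measured 7.74, 6.81 and 6.91 against 8.02 and 8.37, a difference of 1.04 (SE 0.34). In both, nDKO 1 was again the highest nDKO array. For 1455956_x_at, whose suffix marks probes that can also match other transcripts, the values were 7.19, 6.29 and 6.54 against 7.86 and 7.73 (1.12, SE 0.30). For 1448229_s_at, with probes shared between transcripts, they were 6.57, 6.28 and 6.24 against 7.07 and 7.10 (0.72, SE 0.12). That probe set had the narrowest nDKO range of the 6, at 0.33, and a gap of 0.50 between the groups. Probe set 1416123_at was below the array median on 4 of the 5 arrays and above it in nTKO 2 alone, at 4.55, 4.03 and 4.16 against 4.93 and 5.34 (0.89, SE 0.22), so its order rests on low signals. The exception, 1416124_at, was below every array median, at 3.64, 3.24 and 3.02 in nDKO mice against 3.17 and 3.37 in nTKO mice, and its groups overlapped (-0.03, SE 0.21). A dim probe set may not respond to its transcript, and probe sets of a gene are not separate samples.

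**Figure D2:**
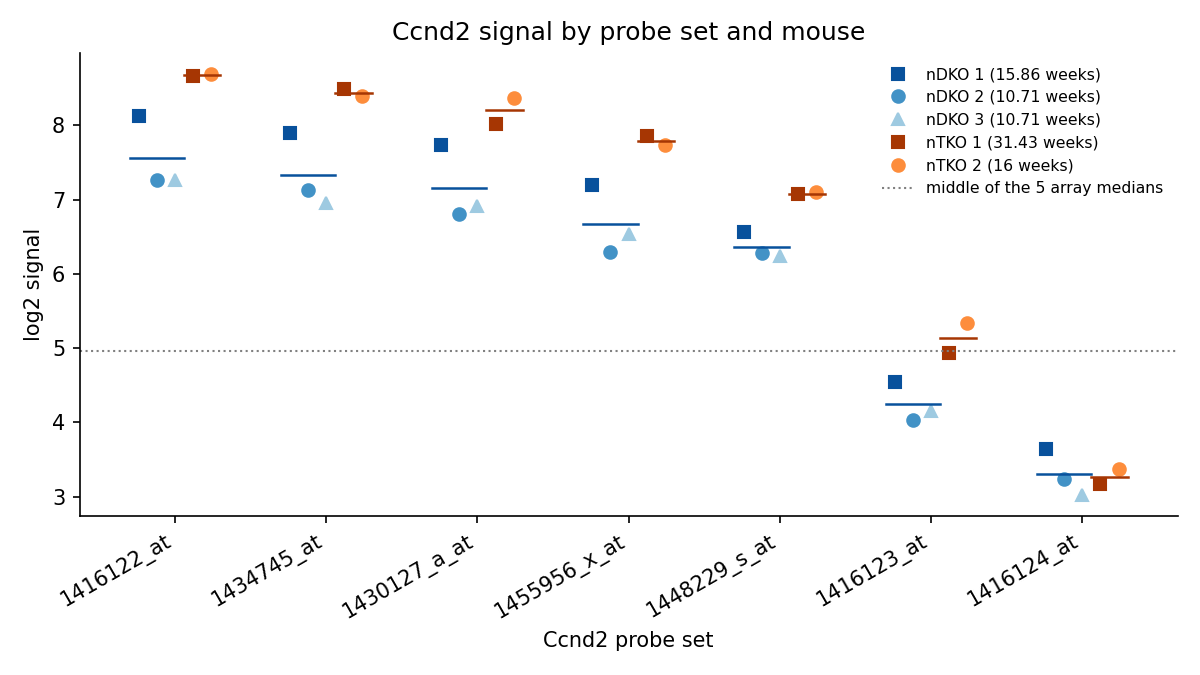
Log2 signal (vertical axis) of the 7 Ccnd2 probe sets (horizontal axis, ordered by mean signal) in each of the 5 mice, with lines at the group means and a dotted line at the middle of the 5 array medians. In the first 6 probe sets both nTKO points lie above the 3 nDKO points, with nDKO 1 the highest of the nDKO mice; in the last, 1416124_at, the groups overlap.

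The size of the Ccnd2 difference depended on which mice were set against each other. In the pair of like age, nTKO 2 at 16 weeks minus nDKO 1 at 15.86 weeks, 1416122_at differed by 0.56 and the other 5 of these probe sets by 0.49 to 0.79. With log2 age as a covariate the difference of 1416122_at was 0.72, and without both nDKO 1 and nTKO 1 it was 1.42. Leaving out 1 mouse at a time gave 0.98 to 1.41. In nTKO 1 and 2 the summed leukocyte signal, in nTKO 1 mostly S100a8 and S100a9, was 16532 and 1392, and Krt10 measured 13.04 and 6.90. Among nDKO mice, Krt10 and Ccnd2 were both highest in nDKO 1, the oldest of the 3. The part of age, of the keratin state and of the leukocyte signal in the Ccnd2 values was not tested. In bulk RNA, a change in the share of cells that express a gene cannot be told from a change in RNA per cell.

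For cyclins D1 and D3 the groups overlapped with all 6 probe sets. Ccnd1 (chr7:144929931-144939831), the D cyclin best known as a mitogen and Wnt target, measured 10.67, 10.93 and 10.68 in nDKO mice against 10.80 and 10.39 in nTKO mice with its brightest probe set, 1417420_at. Here nTKO 2 was the lowest array and the difference was -0.17 (SE 0.17). Its other probe sets, 1448698_at and 1417419_at, overlapped as well, with differences of -0.20 (SE 0.19) and -0.038 (SE 0.10). Ccnd3 (chr17:47505051-47599689), the third D cyclin, measured 8.75, 8.99 and 9.0 against 8.48 and 8.79 with 1415907_at, where nTKO 2 lay within the nDKO range. That difference was -0.28 (SE 0.14), and it was 0.04 in the pair of like age. The dimmer Ccnd3 probe sets 1438805_at and 1444323_at differed by 0.15 (SE 0.076) and -0.058 (SE 0.079), so the direction was not shared within the gene. For 1438805_at, nTKO 2 and nDKO 2 both measured 6.94.

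The kinase partners gave different patterns. Cdk6 (chr5:3341004-3531008), which pairs with D cyclins, had lower values in nTKO cells with no overlap of the groups in all 3 of its probe sets. Probe set 1435338_at measured 9.68, 9.68 and 9.80 in nDKO mice against 9.36 and 9.53 in nTKO mice, a difference of -0.28 (SE 0.084). Probe set 1455287_at measured 9.02, 9.10 and 9.16 against 8.37 and 8.78, a difference of -0.52 (SE 0.15), or a signal at 69.8% of that in nDKO mice. In each Cdk6 probe set nTKO 1 was the lowest array and nTKO 2 the next. For the dimmer 1460291_at, the values were 5.18, 5.18 and 5.44 against 4.49 and 5.17, so that nTKO 2 was 0.01 below the nearest nDKO arrays. The differences were smaller without nTKO 1, the oldest mouse, at -0.19, -0.31 and -0.097 in the same order, and larger without nTKO 2, at -0.36, -0.72 and -0.78. With log2 age as a covariate they were -0.14, -0.21 and 0.048, so the sign turned for the dimmest probe set.

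Cdk4 (chr10:127063535-127067288), the other G1 kinase, had nearly equal means in both genotypes over all 5 mice. Its difference depended on which mice were compared and on whether age was fitted. Its 3 probe sets differed by 0.005 (SE 0.26), -0.087 (SE 0.29) and -0.013 (SE 0.30) between genotypes. In the pair of like age the differences were -0.56, -0.75 and -0.65 in the same order, and with log2 age as a covariate -0.48, -0.66 and -0.54. That pair is 1 mouse against 1, and Krt10 measured 6.90 in nTKO 2 and 13.03 in nDKO 1. Within each genotype the oldest mouse was also the mouse with high Krt10, so the age fit cannot separate age from keratin state. Without both nDKO 1 and nTKO 1 the differences were 0.07, -0.025 and 0.12. With 1422440_at the signal reached 10.03 in nDKO 1 and 9.64 in nTKO 1, while the other 3 mice lay at 9.28 to 9.32. The order was alike in 1422441_x_at, at 10.53 and 10.26 against 9.82 to 9.98, and in 1422439_a_at, at 9.25 and 8.84 against 8.39 to 8.60. Each genotype thus had 1 mouse with higher Cdk4, and the nDKO mouse was the higher of the pair.

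The INK4 genes, neighbours on chromosome 4, split the mice in the same way. Cdkn2a (chr4:89274473-89294619) encodes p16Ink4a and, from another first exon and reading frame, p19Arf, and its only probe set, 1450140_a_at, carries a suffix for probes shared by transcripts of a gene, so the products were not told apart. It measured 9.13, 8.03 and 8.24 in nDKO 1 to 3 and 9.33 and 7.81 in nTKO 1 and 2. The highest arrays were nTKO 1 and nDKO 1, the lowest was nTKO 2, and every nDKO array lay between the nTKO arrays (difference 0.10, SE 0.61). Cdkn2b (chr4:89306289-89311032), which lies 11669 bases beyond Cdkn2a and encodes p15, measured 9.03, 7.80 and 7.83 against 8.60 and 7.43 (difference -0.20, SE 0.58). Within nDKO, mouse 1 exceeded the mean of the others by 1.0 for Cdkn2a and 1.21 for Cdkn2b. Within nTKO, mouse 1 exceeded mouse 2 by 1.52 and 1.17. Over all probe sets on the array, both nDKO 1 and nTKO 1 were above the other 3 arrays for 11%, and this order was found in 8 of the 27 probe sets here. These were all of those of Cdk4, Cdkn2a and Cdkn2b, with 1417419_at of Ccnd1, 1424638_at of Cdkn1a and 1417850_at of Rb1.

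Cdkn1a (chr17:29090979-29100722) encodes p21, the p53-induced inhibitor of cyclin-dependent kinases, and its probe sets disagreed for 1 mouse. The brighter, 1424638_at, measured 10.92, 9.86 and 10.16 in nDKO mice against 10.54 and 9.15 in nTKO mice (difference -0.47, SE 0.56). Here nDKO 1 and nTKO 1 were the highest, as for the INK4 genes, and the groups overlapped. The other, 1421679_a_at, measured 9.32, 7.88 and 8.37 against 7.84 and 7.45, a difference of -0.88 (SE 0.48) with nTKO 1 only 0.04 below the lowest nDKO array. In nTKO 1 the 2 probe sets therefore ranked differently, second highest in the first and second lowest in the other. The difference of 1421679_a_at was -0.48 without nDKO 1, -0.68 without both nDKO 1 and nTKO 1, -1.87 between the mice of like age and -1.70 in the fit with log2 age. In nTKO 2 p21 was the lowest of the 5 mice by both probe sets, as were Cdkn2a and Cdkn2b.

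**Figure D3:**
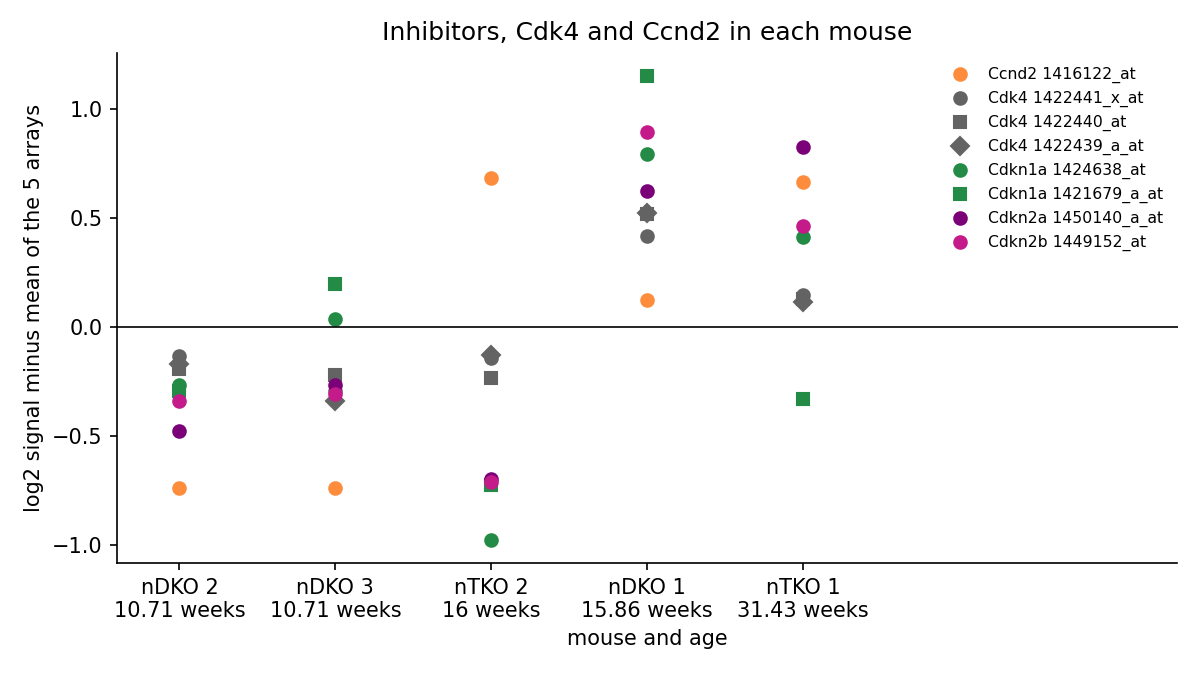
Log2 signal minus the mean of the 5 arrays (vertical axis) for the probe sets of Cdk4, Cdkn1a, Cdkn2a and Cdkn2b and the brightest of Ccnd2, in each mouse with its age (horizontal axis; nDKO 1 and nTKO 1 are placed last). Cdkn2a, Cdkn2b, Cdk4 and 1424638_at of Cdkn1a are above 0 in nDKO 1 and nTKO 1, Cdkn2a, Cdkn2b and Cdkn1a are lowest in nTKO 2, and Ccnd2 is above 0 in nDKO 1 and both nTKO mice.

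Within each genotype the oldest mouse had the highest Cdkn2a, Cdkn2b and 1424638_at of Cdkn1a. Between the mice of like age, nTKO 2 (16 weeks) minus nDKO 1 (15.86 weeks), the differences were -1.32 for Cdkn2a, -1.60 for Cdkn2b and -1.77 for 1424638_at of Cdkn1a. Keratins of stratified epithelium moved with these genes: Krt10, Krt13 and Krt1 measured 13.03, 11.97 and 11.57 in nDKO 1 and 13.04, 9.62 and 10.77 in nTKO 1, against at most 6.93 in the other mice. Basal Krt5 was also highest there, at 13.10 and 12.35 against 10.52 to 10.87. The part of that cell state, of age and of the leukocyte signal in the values of Cdkn2a, Cdkn2b, Cdkn1a and Cdk4 was not tested.

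To show what lies before the starts of the genes that varied together between mice, the 150 bases upstream of each annotated start of Cdkn2a, Cdkn2b, Cdkn1a and Cdk4 are given 5′ to 3′ on the gene's strand (RefSeq, GRCm38.p6). Capitals mark matches, on both strands, to GGGCGG (GC box), TTTNNCGC (a broad E2F motif) or TATAAA. The distal Cdkn2a start is that of the Arf first exon and the proximal start that of Ink4a.
Cdkn2a, distal start, chr4:89294620-89294769, - strand: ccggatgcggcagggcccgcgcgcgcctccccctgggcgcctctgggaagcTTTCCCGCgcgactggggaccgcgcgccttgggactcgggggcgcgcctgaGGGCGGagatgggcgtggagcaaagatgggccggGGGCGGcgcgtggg
Cdkn2a, proximal start, chr4:89282193-89282342, - strand: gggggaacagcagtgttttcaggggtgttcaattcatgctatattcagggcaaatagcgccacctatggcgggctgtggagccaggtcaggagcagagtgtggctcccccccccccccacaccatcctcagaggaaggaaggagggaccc
Cdkn2b, chr4:89311033-89311182, - strand: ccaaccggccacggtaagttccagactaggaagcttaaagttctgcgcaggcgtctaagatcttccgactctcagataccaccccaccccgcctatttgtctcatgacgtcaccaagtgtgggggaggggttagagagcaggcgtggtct
Cdkn1a, first start, chr17:29090829-29090978, + strand: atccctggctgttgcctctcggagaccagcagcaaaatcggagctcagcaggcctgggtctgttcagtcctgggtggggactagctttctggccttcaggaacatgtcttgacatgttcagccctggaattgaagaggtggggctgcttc
Cdkn1a, second start, chr17:29093619-29093768, + strand: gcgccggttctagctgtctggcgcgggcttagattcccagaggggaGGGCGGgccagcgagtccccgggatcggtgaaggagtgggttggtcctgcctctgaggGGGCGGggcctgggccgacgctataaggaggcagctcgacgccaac
Cdk4, chr10:127063385-127063534, + strand: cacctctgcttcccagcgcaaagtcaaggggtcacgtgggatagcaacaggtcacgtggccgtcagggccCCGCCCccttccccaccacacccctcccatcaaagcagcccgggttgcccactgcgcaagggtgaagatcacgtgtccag

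Before the distal Cdkn2a start there was 1 E2F match and 2 GC boxes, in a stretch of 78.7% G and C. The proximal Cdkn2a start and Cdkn2b had none of the 3 motifs in this window, with 60% and 56% G and C. The first Cdkn1a start had none, the second 2 GC boxes, and Cdk4 had 1. Of 32851 promoters of the same length, 28.6% held a GC box, 2.75% the E2F motif and 7.57% TATAAA, and the median G and C content was 54%. A match of letters is not a bound site, and promoters of 7 of the 10 genes were in the table. Of those not shown, each Ccnd3 start and Cdkn1b had 1 GC box, and Cdk6 had 1 TATAAA match and no GC box. GC boxes were thus not particular to the genes shown, which were picked from these values.

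Cdkn1b and Rb1 had overlapping groups with every probe set. Cdkn1b (chr6:134920401-134925525), which encodes p27 and lies on the same chromosome as Ccnd2, measured 9.58, 9.82 and 9.70 in nDKO mice against 9.49 and 9.75 in nTKO mice with 1434045_at (difference -0.08, SE 0.12). The lowest array was nTKO 1. Its dim probe set 1419497_at, below every array median, differed by -0.28 (SE 0.13), and nDKO 1 and nTKO 2 both measured 3.47. Rb1 (chr14:73192858-73325951), whose protein the D cyclin kinases phosphorylate, measured 6.96, 6.80 and 6.66 against 6.89 and 6.80 with 1417850_at (difference 0.038, SE 0.11). Its second probe set, 1444400_at, lay below every array median (0.12, SE 0.15). Arrays measure RNA, so the phosphorylation of Rb and the protein levels of p27 and the D cyclins were not measured. Those protein levels are set in part after transcription.

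**Figure D4:**
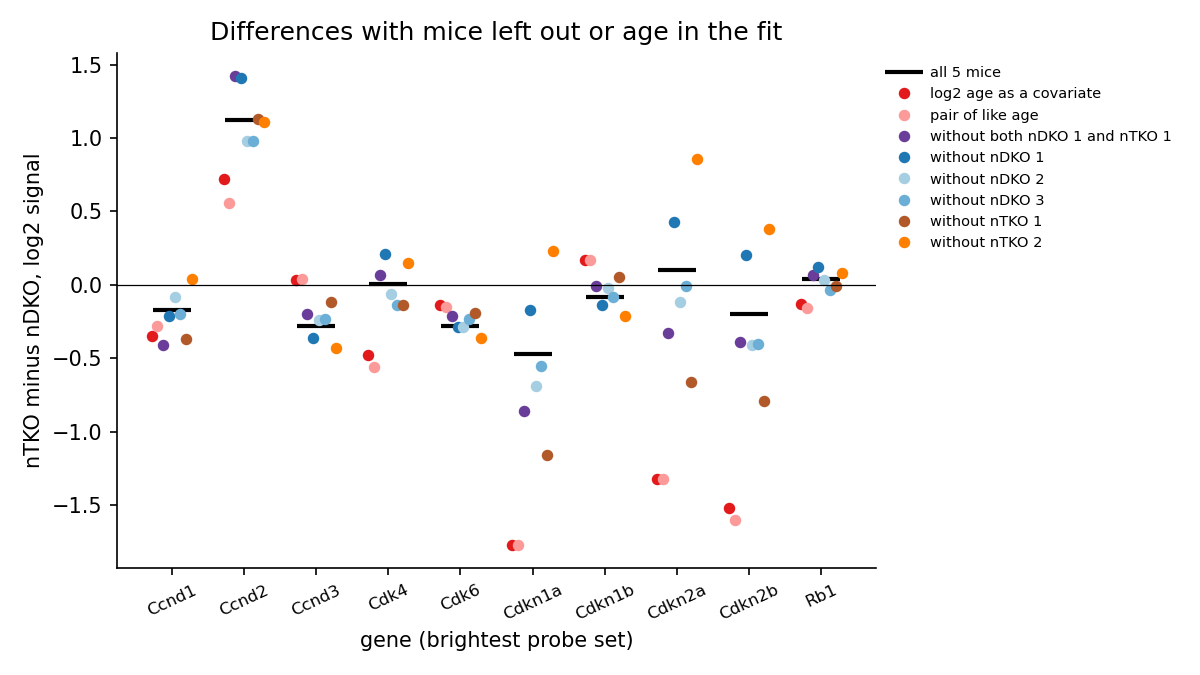
Difference in log2 signal, nTKO minus nDKO (vertical axis), of the brightest probe set of each gene with all 5 mice (black bars), with mice left out, for nTKO 2 minus nDKO 1 alone and in the fit with log2 age (points). Ccnd2 lies between 0.56 and 1.42, Cdk6 between -0.36 and -0.14, Cdkn2a between -1.32 and 0.86 and Cdkn1a between -1.77 and 0.23. The groups of the Ccnd2 and Cdk6 probe sets shown do not overlap, so leaving out or pairing mice cannot turn their sign. The dimmest Cdk6 probe set, 1460291_at, is not shown and ranges from -0.78 to 0.048.

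The genes whose profile over the 5 arrays was closest to that of Ccnd2 were found by Euclidean distance between log2 values, each minus its gene's mean. LOC664787, annotated by a locus number alone, was nearest, at a distance of 0.12, with 8.30, 7.48 and 7.60 in nDKO mice against 8.94 and 8.91 in nTKO mice. Pde6b (0.31) and Wdfy1 (0.33) followed, and Serpinb11 (0.63), Asgr1 (0.65) and Dctd (0.66) were farther. With 5 arrays and 18193 genes, near profiles are easily found, and the list is a description.

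Other genes of the G1 machinery were taken from 7 lists, 98 measured genes with 1 probe set each. In the limma fit to 18193 genes, 0 of the 98 passed an adjusted p of 0.05 in either direction, as did 0% of all genes. Both nTKO mice were above every nDKO mouse for 4 of the 98 and below for 3, or 7.14% together, where 8.13% and 4.71% of all genes were above and below. The mean was higher in nTKO cells for 58 of the 98 (59.2%) and lower for 38 (38.8%), near the 60% and 38.3% over all genes, and the median difference was 0.037 over the lists and 0.028 over all genes. The counts of higher and lower genes in each list are therefore to be read against those shares. Leaving out 1 mouse moved the difference by over 1.5 times for 26 of the 28 genes named by p from the lists, and for 16 of them when that mouse was nTKO 1 and 19 when it was nTKO 2. The exceptions were Lin37 and Junb. The differences of the 98 ranged from -0.52 (Fzr1) to 0.61 (Cryab). Because Ccnd2 was chosen on this contrast, nothing is read from its larger difference.

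Among other cyclins and kinases of G1 and the G1/S step, 7 of 13 had a higher mean in nTKO cells, 5 a lower and 1 an equal one (median 0.022). Over all genes, 60% had a higher mean and 38.3% a lower one. Those with the smallest p were Ccna1 (0.13, a dim probe set), the Mediator kinase Cdk8 (0.15), Ccnh (0.20), a subunit of the Cdk-activating kinase, and Cdk3 (-0.12), of which Cdk8 alone did not overlap. The other inhibitors comprised 4 genes, 2 higher and 2 lower (median 0.0075). The INK4 gene Cdkn2d, which encodes p19Ink4d, measured 7.20, 7.63 and 7.20 in nDKO mice against 7.05 and 7.02 in nTKO mice (-0.31, SE 0.16) and did not overlap. Its relative Cdkn2c (p18) had a higher mean (0.33, SE 0.20) with overlapping groups, and was 0.78 in the pair of like age. Cdkn1c (0.07) and the phosphatase Cdkn3 (-0.055) differed less.

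Pocket proteins, E2F and DP factors had 11 of 16 genes higher and 5 lower, with a median of 0.037, where 60% of all genes were higher and 38.3% lower. Rbl2, which encodes the Rb relative p130, differed by 0.19, by 0.043 without nTKO 1 and by 0.34 without nTKO 2. E2f8, a repressor E2F, differed by 0.23, with 0.12 without nDKO 3 and 0.14 without nTKO 2, while the DREAM complex subunits Lin9 (-0.13) and Lin37 (-0.18) had lower means, Lin37 with no overlap. E2F target genes of S-phase entry were higher for 13 of 21 and lower for 8 (median 0.065), and their median signal was 8.32, 8.26 and 7.93 in nDKO mice against 8.05 and 8.30 in nTKO mice. The helicase subunit Mcm3 (0.26, SE 0.13) alone did not overlap. The replication licensing inhibitor Gmnn differed by -0.31 (-0.13 without nTKO 2), the origin recognition subunit Orc1 by 0.098 and the thymidylate synthase Tyms, dim on every array, by 0.08. The proliferation marker Mki67 differed by -0.12, with overlapping groups.

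Among genes that control the turnover of D cyclins and p27, 8 of 14 were higher and 6 lower (median 0.024), where 60% of all genes were higher and 38.3% lower. Cryab, a chaperone that acts with Fbxo4 on cyclin D1, measured 5.36, 5.18 and 5.41 in nDKO mice against 6.29 and 5.56 in nTKO mice, and its difference of 0.61 (SE 0.25) was 0.24 without nTKO 1 and 0.97 without nTKO 2. Fbxo4 differed by 0.17 and Cks1b, the Skp2 cofactor, by 0.27. The difference of Fzr1, an activator of the anaphase-promoting complex, came from nTKO 1 (6.38 against 7.35 to 7.44 elsewhere) and was -0.02 without that mouse. Polycomb repressors of the Ink4/Arf locus were higher for 7 of 13 and lower for 6 (median 0.073), with Cbx7 (0.18, SE 0.13) alone not overlapping, and Cbx2 (0.19), Cbx8 (0.12) and Rnf2 (0.11) overlapping. Without nTKO 1 the difference of Cbx2 was 0.05. Of mitogen and FoxO regulators, 10 of 17 were higher, 6 lower and 1 equal (median 0.038). The AP-1 subunit Junb was lower in both nTKO mice (-0.29, SE 0.091), Jun differed by -0.28, Foxo1 by 0.22 (0.057 without nTKO 1) and the Wnt effector Lef1 by 0.15, the last 3 with overlapping groups.

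**Figure D5:**
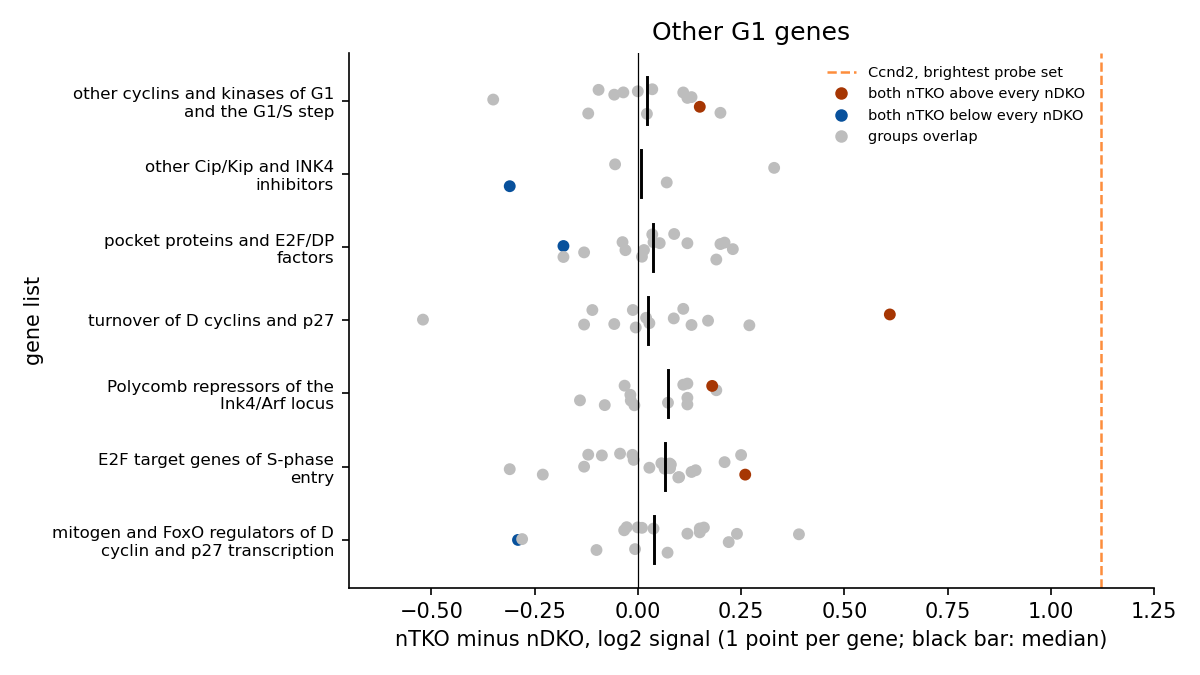
Difference in log2 signal, nTKO minus nDKO (horizontal axis), of the 98 genes in 7 lists of the G1 machinery (1 point per gene), with the list median as a black bar and the brightest Ccnd2 probe set as a dashed line at 1.12. Ccnd2 was chosen on this contrast. List medians lie between 0.0075 and 0.073, and the 7 coloured points are the genes whose groups do not overlap.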

How the data were processed

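Per the submitters' processing notes, the authors used the Transcriptome Analysis Console and RMA (versions: not given in the sources used). Each deposited value is a log2 signal of a probe set on 1 array, with 2 decimals. RMA subtracts background and quantile-normalizes, so shifts shared by most genes are not seen. Of 45037 probe sets, 34945 had 1 gene symbol, 932 several and 9160 none. Differences, nTKO minus nDKO, were fitted with limma 3.58.1 in R 4.3.3 (lmFit, eBayes with trend, Benjamini-Hochberg over all probe sets, two-sided, threshold 0.05, 3 residual degrees of freedom) and checked on simulated arrays with 200 planted changes. For other genes the probe set with 1 symbol and the highest mean was used, fitted over 18193 genes. All member probe sets were named, up to 4 genes per list by smallest unadjusted p, and the 6 genes nearest to Ccnd2 in profile, without Gm-numbered and Rik genes. Mki67 was named after its values were seen. Members and lists were chosen with earlier results of these data known. Alternatives were quantile normalization, median centring, array weights, other eBayes settings, a filter, log2 age, the replicate block and leaving out mice. Mice had separate animal numbers, and the number of arrays limits the precision. Some items are not reported here.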

Additional observations from a re-analysis of the deposited data

How the results depend on the processing

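Over the array, 51 of 45037 probe sets (0.113%) differed by 2-fold or more at an unadjusted p under 0.05 (limma). The count was 587 with log2 age as a covariate, 90 under the replicate block, 24 with 1 probe set per gene, which tests fewer features, and 42 to 285 with 1 mouse left out. The 285 came without nTKO 2 and 100 without nTKO 1, where the lone nTKO array is assumed to vary like the nDKO arrays. The cause of the other changes was not tested. No setting gave an adjusted p under 0.05 in limma. The Ccnd2 difference of 1.12 (1416122_at) kept its sign in all alternatives. Its groups did not overlap, so leaving out or pairing mice could not turn the sign. The difference was 0.56 in the pair of like age, 0.98 with the replicate block and 0.85 as the mean over the 7 Ccnd2 probe sets. With 1 mouse left out it was 0.98 to 1.41. Only nDKO 3 has replicate number 3, so the block gives the same difference as leaving out nDKO 3. The difference of 1460291_at of Cdk6 turned to 0.048 with log2 age as a covariate. Over probe sets, deviations from group means correlated at 0.38 between nDKO 1 and nTKO 1 and at 0.31 between nDKO 2 and nTKO 2. The deviations of the 2 nTKO arrays are equal and opposite, so these are not 2 separate observations. The labels tie no replicate number to a shared litter, batch or day, so the replicate numbers were not taken as a pairing. Settings for the named list genes were added after seeing the data. Signals near or below the array medians limit what can be seen for 1416123_at, 1416124_at, 1460291_at, 1419497_at and 1444400_at.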
